A study of Mus musculus with 28 samples.

Results

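The common gamma chain receptor system of T cells was followed across 5 groups of mice through 10 genes, chosen by symbol from the 55413 gene IDs in the files. They are the receptor chains Il2rb, Il2rg, Il4ra and Il21r, the kinases Jak1 and Jak3, the transcription factors Stat5a and Stat5b, and the feedback inhibitors Socs1 and Cish. All 10 were matched to 1 ID each, and all 10 passed the filter on low counts that left 17132 genes. The libraries were bulk RNA-seq of CD3+ T cells separated magnetically from the spleens of male C57BL/6J mice aged 8 to 12 weeks. Mice of the group rPS (n = 5) received rapamycin inside PEG-b-PPS polymersomes, vesicles built from a block copolymer of ethylene glycol and propylene sulfide, at 60 mg polymer and 1 mg rapamycin per kg. Mice of the group R (n = 6) received rapamycin at 1 mg/kg in 0.2% carboxymethylcellulose, and both were injected under the skin. Mice of the group RO (n = 6) received the oral product Rapamune by gavage, also at 1 mg/kg. Mice of the group PS (n = 4) were injected with empty polymersomes at the same polymer dose. Treated mice had 1 dose a day for 11 days, and the group NT (n = 7) was untreated. No group received the cellulose vehicle alone, so the vehicle and rapamycin cannot be told apart in R.

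The receptors for IL-2, IL-4, IL-7, IL-9, IL-15 and IL-21 share the common gamma chain, which Il2rg encodes, and differ in the private chains that bind each cytokine. Jak3 binds the gamma chain and Jak1 the private chain, and the activated kinases phosphorylate STAT proteins, of which Stat5a and Stat5b carry most of the response to IL-2, IL-7 and IL-15. Cish and Socs1 are induced by this signal and damp it. Rapamycin inhibits mTOR complex 1, a kinase complex that cytokine receptors also activate, by binding it together with the protein FKBP12.

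Totals ran from 4286885 to 15696529 counts per library, and levels are given in CPM, the counts of a gene scaled to the library total. In RO replicate 7 the counts were 0 past a point on chromosome 12 and on all later chromosomes in the file, which hold Il2rb, Il2rg and Socs1. That library is left out of every test, so that RO has 5 libraries and the fit 27. In 7 of the 27 libraries the mean log2 CPM of 15 T cell markers was below that of 10 monocyte and macrophage markers. These libraries, called T-cell-poor here, were replicate 3 of R, replicate 3 of RO, and replicates 3, 4, 5, 7 and 8 of NT. Their Cd3e level, which encodes a chain of the CD3 complex used to define the cells, was 9.58 to 76.0 CPM, against 122 to 471 CPM in the other 20 libraries. B cell markers were present in all 27 libraries, with a summed level of 426 to 4670 CPM over 10 markers in rPS and 2050 to 5200 CPM in NT, so the labelled cell type was not pure. The T-cell-poor rule did not weigh B cell markers. In most of the other 20 libraries their mean log2 CPM was above that of the T cell markers, as in R replicate 6 (8.72 against 6.82). It was below in NT replicates 2 and 6 (7.77 against 8, and 7.6 against 8.13). In NT the transcripts Malat1 and mt-Rnr2 were listed at 0 in every library, while Malat1 held 1.57% to 2.78% of counts in the fitted libraries of the other groups. The cause was not tested. Any difference in how the NT libraries were handled cannot be told apart from treatment in the comparisons with NT. In bulk RNA, fewer cells of a type and less RNA per cell cannot be told apart.

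Per kilobase of exon, Jak1 had the highest level of the 10 genes. Its median over the 27 libraries was 114 CPM per kb, with a range of 70.9 to 155. The common chain Il2rg followed at a median of 100 CPM per kb, and then came Il4ra at 70.5, Il21r at 60.1 and Il2rb at 58.0 CPM per kb. Neighbours among these 5 had overlapping ranges over libraries. Jak3 at 36.0 and Stat5b at 33.0 CPM per kb stood lower and overlapped each other. Stat5a had a median of 11.4 CPM per kb, and its range of 8.1 to 15.2 did not overlap the range of 24.1 to 41.5 CPM per kb of Stat5b. Socs1 had a median of 10.8 CPM per kb with a wide range of 1.17 to 38.5, and Cish had the lowest median at 2.38 CPM per kb. Exon length was that of all annotated exons of a gene merged, 7133 bases for Stat5a and 5539 for Stat5b. The part of the annotated isoforms in this order was not tested.

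**Figure D1:**
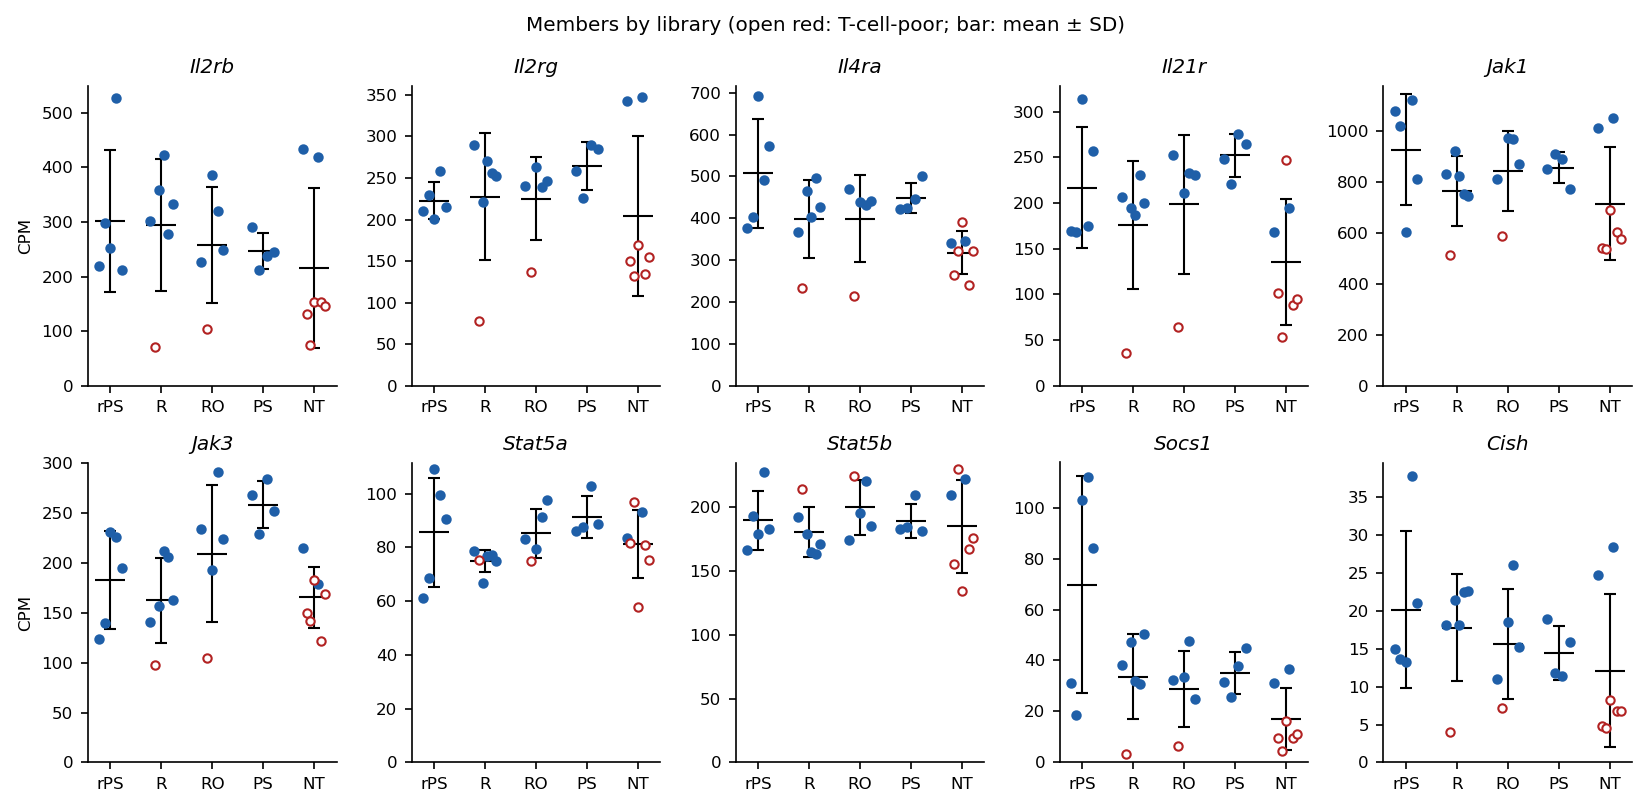
Level of each of the 10 genes in every library of the 5 groups, in CPM (vertical axis), with the mean and SD of the group; open red points are the T-cell-poor libraries. Socs1 reaches 112 CPM in rPS and 36.5 CPM in NT, and the open points lie below all filled ones for Il2rb, Il2rg, Socs1 and Cish.

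In mice given rapamycin-loaded polymersomes, 2 of the 10 genes differed from untreated mice at an edgeR adjusted p under 0.05, Il4ra and Socs1, and both were higher. Of all genes tested, 21.5% were called in this comparison (10.6% higher and 10.9% lower), so the share of the 10 is close to the background. None of the 10 was called in R against NT, where 0.665% of all genes were called. There 0 of the 10 had an unadjusted p under 0.05, against 13.9% of all genes and 37.8% in rPS against NT. None was called in RO against NT, where 0.0117% of all genes were called and again 0 of the 10 had such an unadjusted p (12.7% of all genes). In PS against NT none was called and 3 of the 10 had an unadjusted p under 0.05, Il4ra, Il21r and Jak3, while 4.97% of all genes were called and 31.7% had such a p. DESeq2 called the same number of the 10 in each of these comparisons, 2 in rPS against NT and 0 in the others. The 4 comparisons share the NT libraries, 5 of which were T-cell-poor. In rPS against NT 0 of 15 T cell markers were called, but all 15 had a log2 fold change above 0, with a median of 0.57. Their summed level had a median of 2790 CPM in rPS and 684 CPM in NT. Of the other markers, 2 of 10 B cell, 7 of 10 NK cell, 6 of 10 monocyte and macrophage and 9 of 9 neutrophil markers were lower. The summed monocyte and macrophage level was 154 to 1770 CPM in rPS and 654 to 8460 CPM in NT. The part of T cell content and of these other cells in the differences was not tested. The number of genes called in PS against NT was 851 and ran from 2 to 2900 when single libraries were left out.

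Of the receptor chains, Il4ra was called in rPS against NT. It encodes the alpha chain of the IL-4 receptor, which pairs with the gamma chain, and it is also expressed on B cells. Il4ra stood at 376, 403, 692, 492 and 573 CPM in the 5 rPS libraries. In R its lowest, median and highest values were 234, 415 and 496 CPM. In RO it stood at 469, 215, 439, 431 and 441 CPM, the low value being the T-cell-poor replicate 3, and in PS at 423, 425, 446 and 501 CPM. In NT its lowest, median and highest values were 241, 322 and 392 CPM. Thus 4 of 5 rPS libraries and all 4 PS libraries lay above every NT library, and rPS overlapped NT only through rPS replicate 1. The RO libraries other than replicate 3 also lay above every NT library. So did R replicates 4, 5, 6 and 7, at 465, 403, 496 and 426 CPM. How many of all genes lay apart from NT in this way was not counted. The means were 507 ± 129 CPM in rPS and 318 ± 50.8 CPM in NT (SD, n = 5 and 7), a log2 fold change of 0.62 ± 0.17 (SE, edgeR adjusted p = 0.0132). In PS against NT the log2 fold change of Il4ra was 0.38 ± 0.18 (edgeR adjusted p = 0.149), and 0.17 ± 0.14 with the GC slope described next as a covariate (edgeR adjusted p = 0.426).

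Base composition of the libraries moved with Il4ra. The slope of log2 CPM on transcript GC content, fitted over the genes of each library relative to the average library, was 0.77 per 10 GC points in rPS replicate 4 and 0.34 in rPS replicate 7, the highest of the 27 libraries, and these had the highest Il4ra levels. In the other 3 rPS libraries the slope was −0.32, −0.07 and −0.12, and the NT libraries ran from −0.26 to 0.06. The reference transcript of Il4ra has 55.8% GC, that of Socs1 58.8% and the median tested gene 49.1%. With this slope as a covariate, an alternative chosen after seeing the data, the log2 fold change of Il4ra in rPS against NT was 0.35 ± 0.13 (edgeR adjusted p = 0.0676). Without rPS replicate 4 it was 0.48 ± 0.17 (edgeR adjusted p = 0.0603), and without the T-cell-poor libraries 0.5 ± 0.19 (edgeR adjusted p = 0.0769). With 3 covariates, the mean levels of the red cell, B cell and monocyte lists, it was 0.46 ± 0.14 (edgeR adjusted p = 0.0346).

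Il21r encodes the private chain of the IL-21 receptor. It stood at 169, 168, 314, 175 and 257 CPM in rPS. Its lowest, median and highest values in R were 36.1, 197 and 231 CPM. In RO it stood at 253, 64.6, 211, 233 and 231 CPM, and in PS at 248, 221, 275 and 265 CPM. In NT the lowest, median and highest values were 53.6, 102 and 247 CPM. The groups overlapped, and the lowest values in R, RO and NT were all in T-cell-poor libraries, as was the highest value in NT. In PS against NT the log2 fold change was 0.82 ± 0.36 (edgeR adjusted p = 0.125). It was 0.37 ± 0.21 without the T-cell-poor libraries and 0.22 ± 0.15 with 3 marker covariates (edgeR adjusted p = 0.277 and 0.588).

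The 2 chains that make up the IL-2 and IL-15 receptor with intermediate affinity, Il2rb and Il2rg, were not called in any comparison over the 27 libraries. Il2rg stood at 210, 230, 201, 258 and 215 CPM in rPS. Its lowest, median and highest values were 77.9, 254 and 289 CPM in R. In RO it stood at 240, 137, 263, 239 and 246 CPM, and in PS at 258, 226, 289 and 285 CPM. NT held both the 2 highest Il2rg levels, 342 and 347 CPM in replicates 2 and 6, and 5 libraries at 132 to 169 CPM, the T-cell-poor ones. Il2rb split in the same way. It stood at 219, 298, 252, 526 and 212 CPM in rPS, at 71.3 to 423 CPM in R with a median of 317, and at 227, 104, 386, 320 and 249 CPM in RO. It stood at 291, 212, 238 and 245 CPM in PS. In NT it stood at 433 and 419 CPM in replicates 2 and 6, and at 74.0 to 154 CPM in the 5 T-cell-poor libraries. The mean Il2rg level was 223 ± 22.1 CPM in rPS and 204 ± 96.5 CPM in NT, and that of Il2rb was 302 ± 130 CPM in rPS and 216 ± 146 CPM in NT (SD, n = 5 and 7).

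Set against the 2 NT libraries that were not T-cell-poor, Il2rg was lower in the treated groups. In a fit of the 20 libraries without the T-cell-poor ones, its log2 fold change was −0.69 ± 0.13 in rPS against NT (edgeR adjusted p = 0.0025), −0.58 ± 0.14 in RO against NT (edgeR adjusted p = 0.0253) and −0.49 ± 0.14 in PS against NT (edgeR adjusted p = 0.0359). In R against NT it was −0.47 ± 0.13 (edgeR adjusted p = 0.0523). It was the only one of the 10 called in this fit, in 3 of the 4 comparisons with NT, where 14.7% of all genes were called in rPS, 3.58% in R, 3.55% in RO and 7.62% in PS. These 2 NT libraries also had the highest Cd3e levels of all, 401 and 471 CPM, against 122 to 347 CPM in rPS, and 7 of 15 T cell markers were lower in rPS than in NT in this fit, Cd3e with a log2 fold change of −1.04 ± 0.24 (edgeR adjusted p = 0.00782). The part of T cell content in the Il2rg difference was not tested. Il2rb had log2 fold changes of −0.9 to −0.39 in the 4 comparisons with NT in this fit, and its lowest edgeR adjusted p was 0.0598, in PS against NT. With the 3 marker covariates over the 27 libraries, Il2rg was called in none of these comparisons. Its log2 fold changes against NT were −0.29 ± 0.18 in rPS, −0.19 ± 0.15 in R, −0.04 ± 0.17 in RO and −0.01 ± 0.2 in PS (edgeR adjusted p = 0.286, 0.54, 0.966 and 0.987).

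**Figure D2:**
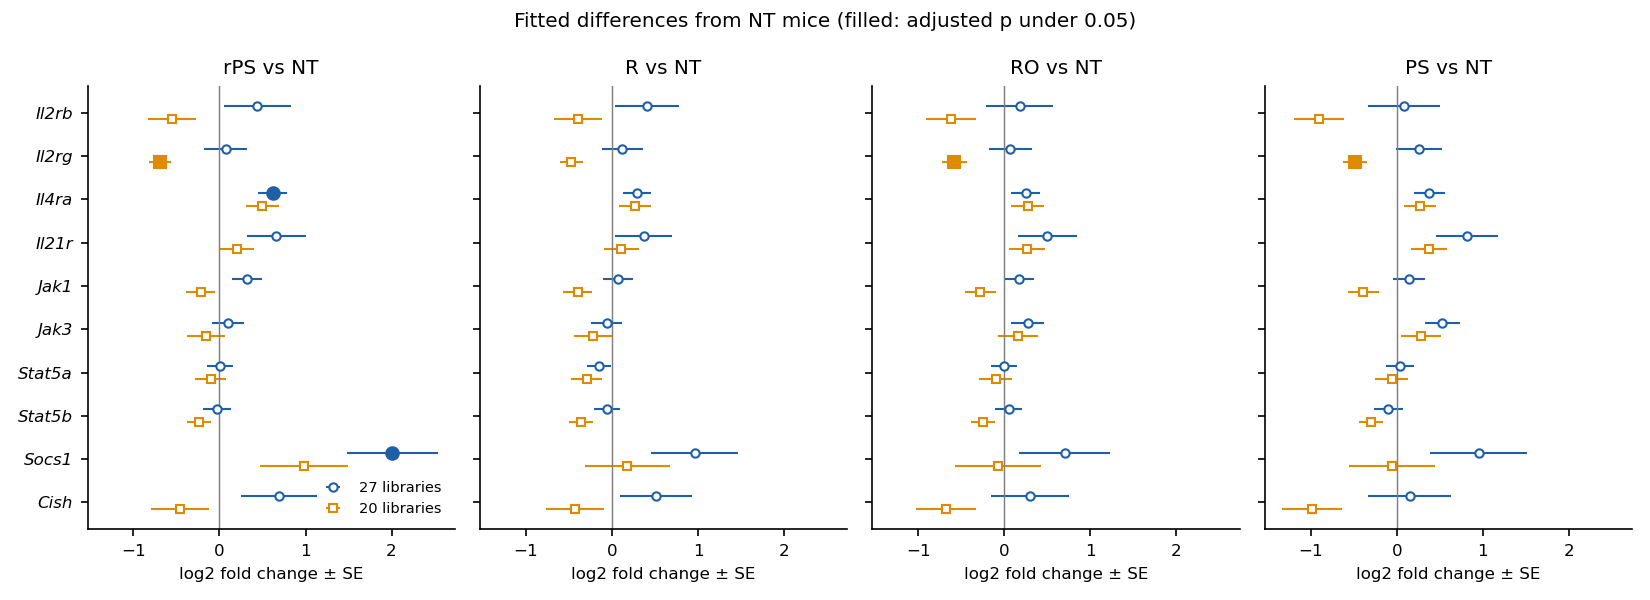
Fitted log2 fold change with its SE (horizontal axis) of the 10 genes in rPS, R, RO and PS against NT, from all 27 libraries (blue circles) and from the 20 libraries that were not T-cell-poor (orange squares); filled symbols have an adjusted p under 0.05. Il4ra at 0.62 and Socs1 at 2.01 are filled only in the 27 libraries, and Il2rg at −0.69 in rPS only in the 20.

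Neither kinase was called over the 27 libraries. Jak1, which binds the private chains of all the receptors of this family and also interferon receptors, stood at 1080, 1020, 602, 1120 and 812 CPM in rPS, the low value being replicate 4. Its lowest, median and highest values were 513, 789 and 920 CPM in R and 538, 603 and 1050 CPM in NT. In RO and PS it averaged 843 ± 157 and 855 ± 60.9 CPM (SD, n = 5 and 4). Jak3, the kinase that works with the gamma chain, had its highest group mean in PS, where it stood at 268, 229, 284 and 252 CPM. In NT its lowest, median and highest values were 122, 169 and 215 CPM, so that PS and NT did not overlap. Such separation was not counted over all genes, of which 31.7% had an unadjusted edgeR p under 0.05 in PS against NT. The log2 fold change of Jak3 in PS against NT was 0.53 ± 0.2, with an edgeR adjusted p of 0.0872, and with only PS and NT in the fit the adjusted p was 0.0365. In rPS Jak3 stood at 124, 140, 231, 226 and 195 CPM, with all but replicate 4 below every PS library. Its values in R ran from 97.5 to 212 CPM and in RO from 105 to 291 CPM. Without the T-cell-poor libraries, which include 5 of the 7 NT libraries, the log2 fold change of Jak3 in PS against NT was 0.28 ± 0.23 (edgeR adjusted p = 0.449). It was 0.37 ± 0.2 with the GC slope as a covariate and 0.19 ± 0.18 with the 3 marker covariates (edgeR adjusted p = 0.217 and 0.712). The transcript of Jak3 has 61% GC, the highest of the 10 genes, and that of Jak1 47.6%, the lowest.

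Stat5a averaged 85.6 ± 20.2 CPM in rPS, 75.0 ± 4.17 CPM in R, 85.3 ± 9.11 CPM in RO, 91.3 ± 8.1 CPM in PS and 81.2 ± 12.7 CPM in NT (SD). Stat5b averaged 190 ± 23, 181 ± 19.4, 200 ± 22.1, 189 ± 13.3 and 185 ± 36.4 CPM in rPS, R, RO, PS and NT (SD). In rPS Stat5a stood at 61.2, 68.5, 109, 99.3 and 90.4 CPM, a wider spread than in any other group, and its highest value was in replicate 4, the library with the steepest GC slope. Their log2 fold changes lay between −0.15 and 0.05 in the 4 comparisons with NT, with standard errors of 0.14 to 0.17. Stat5a and Stat5b lie next to each other on chromosome 11 and share 608 stretches of 50 bases, 8.21% of those in the Stat5a transcripts and 11% of those in Stat5b, so their counts carry some uncertainty. Stat5a also shares 72 exon bases with the oppositely transcribed Stat3, which had a median of 284 CPM, and strand use in the counting is not given in the sources used here. Overlaps on the same strand were larger for 2 other members. Il2rg shares 30.5% of its exon bases with Gm20489, which had a median of 0 CPM. Jak3 shares 7.55% with Insl3, which had a median of 2.36 CPM.

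Of the feedback inhibitors, Socs1 was called in rPS against NT. SOCS1 binds JAK kinases and limits signalling by gamma chain cytokines and interferons. Socs1 stood at 31, 18.5, 103, 112 and 84.2 CPM in rPS. Its lowest, median and highest values were 3.39, 35.2 and 50.2 CPM in R. It stood at 32.2, 6.43, 33.6, 47.5 and 24.8 CPM in RO and at 31.4, 25.8, 37.9 and 44.9 CPM in PS. In NT it stood at 31 and 36.5 CPM in replicates 2 and 6, and at 4.38 to 16.4 CPM in the 5 T-cell-poor libraries. The 3 highest of all 27 libraries were thus in rPS, while rPS replicates 1 and 2 lay inside the range of NT. The means were 69.7 ± 42.4 CPM in rPS and 16.9 ± 12.2 CPM in NT (SD, n = 5 and 7), a log2 fold change of 2.01 ± 0.53 (edgeR adjusted p = 0.0119). In the 20 libraries it was 0.98 ± 0.51 (edgeR adjusted p = 0.197), and with the 3 marker covariates it was 0.92 ± 0.3 (edgeR adjusted p = 0.044). With the GC slope as a covariate it was 1.54 ± 0.53 (edgeR adjusted p = 0.0535).

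Replicate 5 of rPS had the summed T cell marker level that was highest in rPS, 4160 CPM. Its summed levels were the lowest of rPS for B cell (426 CPM), monocyte and macrophage (154 CPM) and neutrophil markers (15.4 CPM), but not for NK cell markers, at 207 CPM in a range of 140 to 224 CPM. Its GC slope was −0.12. In it Il4ra stood at 492 CPM and Socs1 at 112 CPM, both above every NT library. This library also had the highest Il2rb level of all 27, 526 CPM, and the highest Cish level, 37.8 CPM. These values come from a single library that was picked after they were seen. The part of its T cell content, of other cells and of the GC slope in these levels was not tested.

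Cish, which encodes an inhibitor of the IL-2 receptor and is a classical STAT5 target, stood at 15, 13.7, 13.3, 37.8 and 21.1 CPM in rPS. Its lowest, median and highest values were 3.98, 19.8 and 22.6 CPM in R. It stood at 11.0, 7.21, 18.6, 26 and 15.2 CPM in RO and at 18.9, 11.8, 11.4 and 15.9 CPM in PS. In NT it stood at 24.8 and 28.5 CPM in replicates 2 and 6, and at 4.53 to 8.29 CPM in the T-cell-poor libraries. Cish was called in no comparison.

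Because Cish and Socs1 are the feedback inhibitors among the members, the sequences around their gene starts are shown. They come from RefSeq windows of 250 bases before to 50 bases after the start (build GRCm38.p6). Capitals mark the motif matches. The Cish window, chr9:107296409-107296708 on the plus strand, holds 2 matches to the STAT motif TTCNNNGAA, 0 and 11 bases after the gene start. The Socs1 window, chr16:10785487-10785786 on the minus strand, holds 2 overlapping matches to the interferon response motif GAAANNGAAA, 83 and 77 bases before the start.
Cish: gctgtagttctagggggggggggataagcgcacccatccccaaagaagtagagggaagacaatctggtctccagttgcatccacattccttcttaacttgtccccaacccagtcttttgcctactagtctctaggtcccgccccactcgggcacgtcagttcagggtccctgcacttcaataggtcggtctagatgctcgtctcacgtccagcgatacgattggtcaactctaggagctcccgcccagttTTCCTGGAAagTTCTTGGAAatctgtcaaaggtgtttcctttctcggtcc
Socs1: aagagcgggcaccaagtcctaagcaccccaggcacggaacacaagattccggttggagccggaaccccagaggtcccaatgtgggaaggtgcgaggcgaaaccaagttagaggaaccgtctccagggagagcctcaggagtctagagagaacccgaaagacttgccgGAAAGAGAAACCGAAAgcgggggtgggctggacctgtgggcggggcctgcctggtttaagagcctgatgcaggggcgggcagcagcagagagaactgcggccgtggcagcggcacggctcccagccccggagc
Both strands were searched. TTCNNNGAA occurs in 8.3% of the 32851 windows of all genes, with 2 or more matches in 0.457%, and GAAANNGAAA in 3.44%, with 2 or more in 0.225%. Of 11 windows for 9 of the 10 genes, only that of Cish held TTCNNNGAA and only that of Socs1 held GAAANNGAAA. The motif TTCNNNNGAA, the spacing preferred by STAT6, occurs in 6.95% of all windows and in none of the 11. A match describes these letters and does not show binding.

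**Figure D3:**
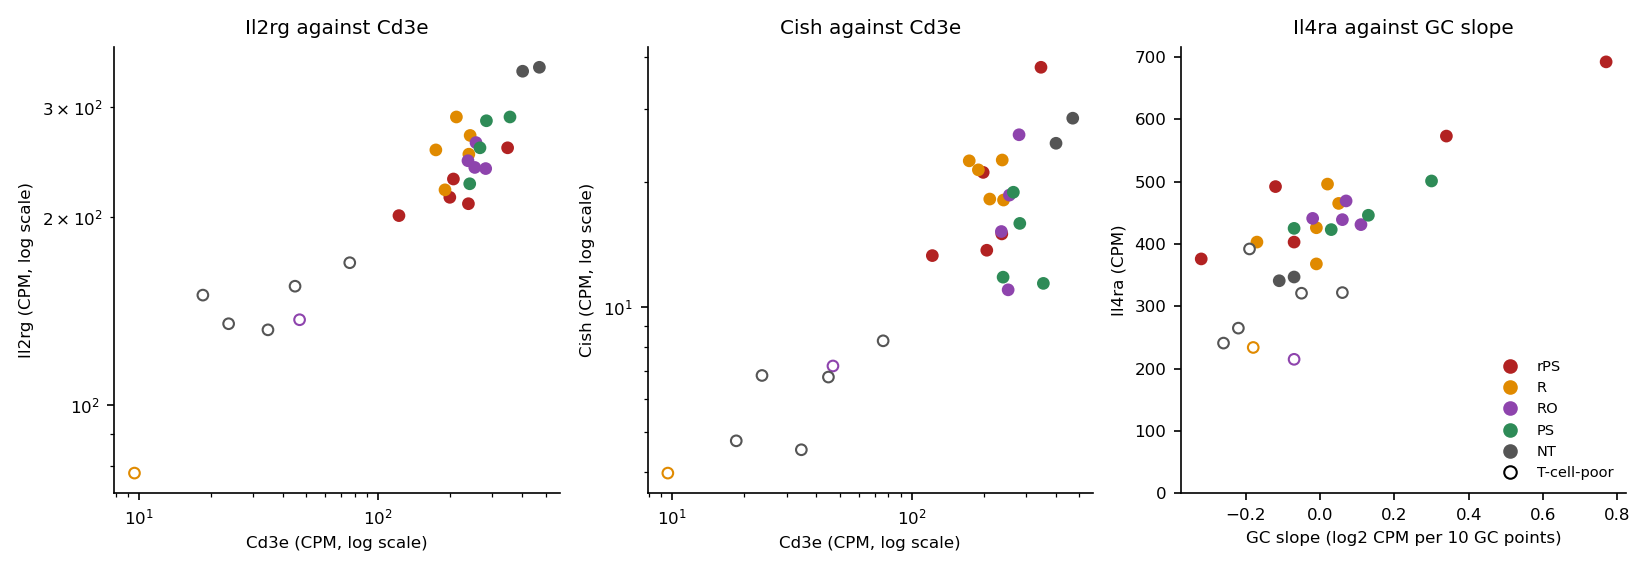
Il2rg and Cish against Cd3e by library (both axes CPM on log scales) and Il4ra in CPM against the GC slope of the library (log2 CPM per 10 GC points); colours are groups and open symbols T-cell-poor libraries. The open symbols lie lowest for Il2rg and Cish, and the rPS library with a slope of 0.77 has the highest Il4ra level, 692 CPM.

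The T-cell-poor libraries, all in R, RO and NT, stood apart from the others for 4 of the 10 genes. The share of all genes tested that stood apart in this way was not counted, and Cd3e, a marker used to set the split, did too. The levels in the 7 T-cell-poor libraries did not overlap those in the other 20 for Il2rb (71.3 to 154 against 212 to 526 CPM), for Il2rg (77.9 to 169 against 201 to 347 CPM), for Socs1 (3.39 to 16.4 against 18.5 to 112 CPM) or for Cish (3.98 to 8.29 against 11.0 to 37.8 CPM). For Il4ra, Il21r, Jak1, Jak3, Stat5a and Stat5b the ranges overlapped, but the median of each was lower in the T-cell-poor libraries. It was 265 against 435 CPM for Il4ra, 89.0 against 216 CPM for Il21r and 576 against 880 CPM for Jak1. For Il4ra and Il21r the highest T-cell-poor values, 392 and 247 CPM, were in NT replicate 5. That library was T-cell-poor by a small margin, with mean log2 CPM of 6.2 for T cell and 6.26 for monocyte and macrophage markers. As a description over libraries that share their composition, and with group means subtracted, Il2rb and Il2rg had a Pearson r of 0.92 over the 27 libraries, and 0.48 over the 20 that were not T-cell-poor. Il2rb and Cish had r of 0.92 over the 27 and 0.65 over the 20. Among the 20, Il4ra and Il21r had r of 0.84 with each other, and −0.76 and −0.87 with Jak1. Stat5a had r of 0.75 with Jak3 and 0.7 with Socs1, and 0.38 with Stat5b. These points also share the GC slope of their libraries.

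**Figure D4:**
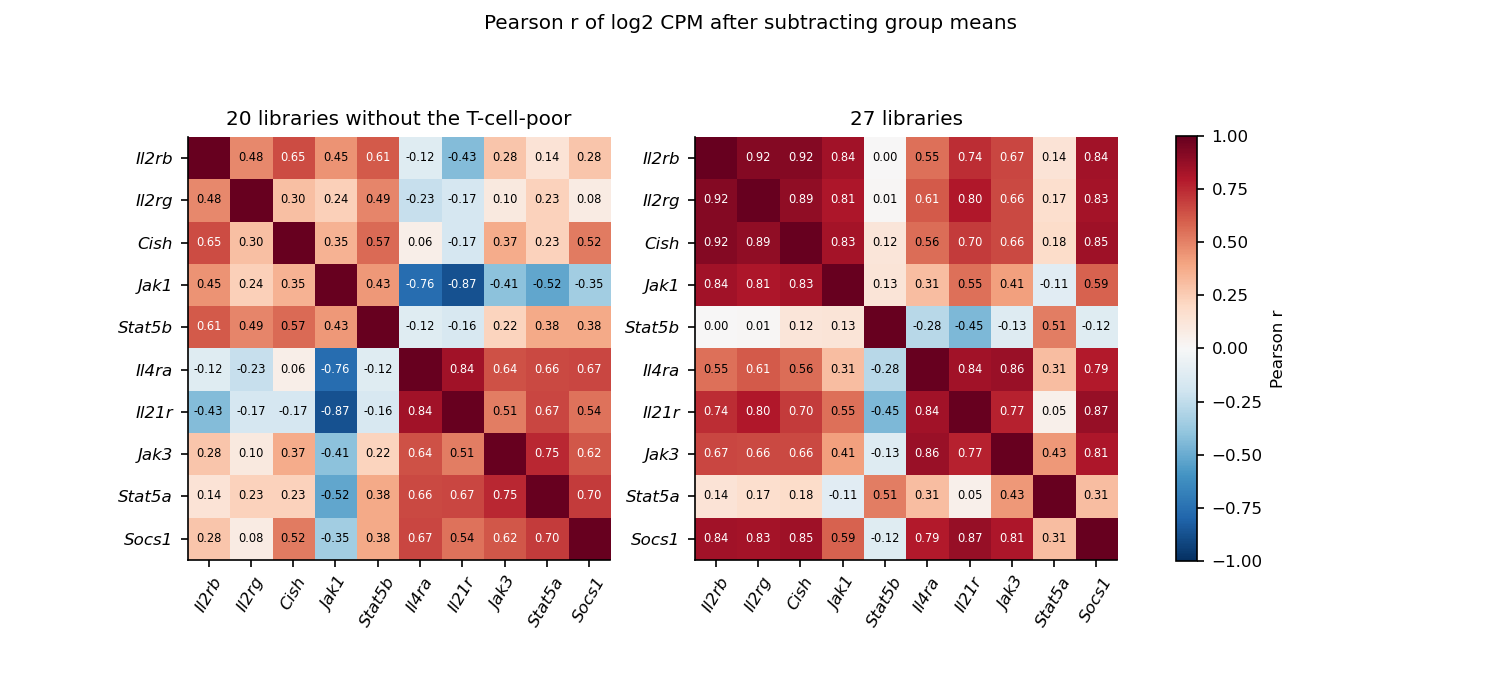
Pearson r of log2 CPM between the 10 genes after subtracting group means, over the 20 libraries that were not T-cell-poor and over all 27. Jak1 runs against Il21r (−0.87) and Il4ra (−0.76) in the 20 libraries, and Il2rb, Il2rg and Cish have r of 0.89 to 0.92 in the 27.

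The genes most like each member by the same measure were read from the 27 libraries, which differ in T cell content and in GC slope. The part of either in these r values was not tested. For Il2rb they were Ccl5, Ctsw and D16Ertd472e (r = 0.94 each), Ccl5 being a chemokine and Ctsw a protease of cytotoxic T cells and NK cells. For Il2rg they were Klk8 (0.98), Cd8b1 (0.97), a chain of the CD8 co-receptor, and Pced1b (0.97). For Il21r they were Pou6f1 (0.98), Bach2 (0.97), a transcription factor of naive lymphocytes, and Zfp831 (0.97). For Cish they were Lrig1, Gata3, a transcription factor of T cells, and Acsbg1 (0.94 each), and for Socs1 Plekha7 (0.96), Fam102a and Prkd2 (0.95 each). For Jak1 they were Thap12 (0.97), Prkacb and Cd226 (0.96 each). For Il4ra they were Polrmt (0.95), which encodes the mitochondrial RNA polymerase, Noc2l and Pprc1 (0.94 each), and Polrmt stayed among the 3 nearest over the 20 libraries (0.95). For Jak3 they were Ndor1 (0.93), Srcap and Pkmyt1 (0.91 each), for Stat5a Maml1 (0.9), Sh3bp1 (0.88) and Sh2d3c (0.84), and for Stat5b Tnfaip8l2 (0.86), Cln6 and Lgals1 (0.85 each). Over the 20 libraries Fam102a also stayed among the 3 nearest for Socs1 (0.95). For every member but Il4ra and Socs1 all 3 nearest genes were replaced there, for Il2rg by Trbv14, Cd52 and Gltp (0.78 each).

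Comparisons among the treated groups called none of the 10 genes. In rPS against PS, which share the carrier and differ in rapamycin, the log2 fold changes ran from −0.43 for Jak3 to 1.06 for Socs1, and 6 of 10 were above 0. None of the 10 had an unadjusted p under 0.05 there (4.97% of all genes), and 0.0817% of all genes were called. In rPS against R the log2 fold changes ran from −0.04 to 1.05 with 0 of 10 below an unadjusted p of 0.05 (11% of all genes) and 0.0117% of all genes called. In rPS against RO only Socs1 had an unadjusted p under 0.05, with a log2 fold change of 1.31 ± 0.58 (edgeR adjusted p = 0.57), against 8.11% of all genes, and 0.0175% of all genes were called. In R against RO 0% of all genes were called, 504 genes (2.94%) had an unadjusted p under 0.05, none of the 10 among them, and DESeq2 called 13 genes. The difference between rPS minus PS and R minus NT had log2 values from −0.52 to 0.14 for the 10, none with an unadjusted p under 0.05 (4.71% of all genes), and 0.0175% of all genes were called. DESeq2 called 0 of the 10 in each of these 5 comparisons.

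Ratios within a library do not depend on scaling, but the GC slope can enter a ratio of genes that differ in GC. Jak3 and Jak1 have the highest and lowest GC of the 10 genes, 61% and 47.6%. The slope was 0.03, −0.07, 0.13 and 0.3 in the PS libraries and ran from −0.26 to 0.06 in NT. Its part in the ratio of Jak3 to Jak1 was not tested. The log2 ratio of Jak3 to Jak1 counts was −1.73 ± 0.18 in PS and −2.08 ± 0.29 in NT (SD, n = 4 and 7; exact two-sided permutation test, p = 0.0424, adjusted over 15 ratio tests p = 0.317). The log2 ratio of Il2rb to Il2rg was 0.35 ± 0.41 in rPS and −0.11 ± 0.2 in PS (SD, n = 5 and 4; exact two-sided permutation test, p = 0.0635, adjusted p = 0.317). The log2 ratio of Stat5a to Stat5b was −1.17 ± 0.32 in rPS and −1.18 ± 0.14 in NT (SD, n = 5 and 7; exact two-sided permutation test, p = 0.952, adjusted p = 0.952). None of the 15 ratio tests passed after adjustment.

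Of 13 cytokines and private receptor chains around these genes 8 passed the low-count filter, and in rPS against NT 1 was lower and none higher, where 21.5% of all genes were called. It was Il13ra1, a receptor chain for IL-13 that pairs with Il4ra and is common on myeloid cells, with 9.35 ± 6.8 CPM in rPS and 54.9 ± 42.0 CPM in NT (SD, n = 5 and 7) and a log2 fold change of −2.65 ± 0.95 (edgeR adjusted p = 0.0476). Without the T-cell-poor libraries none of the 8 was called in rPS against NT, Il13ra1 having a log2 fold change of 0.06 ± 0.51, and beside this fall 9 of 9 neutrophil markers and 6 of 10 monocyte and macrophage markers were lower in rPS over the 27 libraries. Il7r, the IL-7 receptor chain of naive and memory T cells, stood at 503, 308, 160, 1040 and 265 CPM in rPS, and at 30.9, 35.3 and 412 CPM as lowest, median and highest in NT (log2 fold change 1.68 ± 0.67, edgeR adjusted p = 0.0693). The 5 T-cell-poor NT libraries held 30.9 to 71.5 CPM of Il7r, and without the T-cell-poor libraries its log2 fold change was 0.2 ± 0.46 (edgeR adjusted p = 0.796). It averaged 247 ± 125 CPM in R, 166 ± 73.9 CPM in RO and 187 ± 37.0 CPM in PS (SD). Il2ra, the high-affinity IL-2 receptor chain of regulatory and activated T cells, averaged 15.6 ± 12.2, 15.3 ± 7.94, 13.7 ± 7.95, 12.6 ± 5.0 and 16.7 ± 17 CPM in rPS, R, RO, PS and NT (SD). Its 2 highest values among the 27 libraries were 42.1 and 40.9 CPM in NT replicates 2 and 6, and without the T-cell-poor libraries it was lower in PS than in NT, with a log2 fold change of −1.83 ± 0.52 (edgeR adjusted p = 0.0382). Il15ra averaged 7.04 ± 1.45, 8.03 ± 3.72, 8.86 ± 1.51, 8.28 ± 0.823 and 10.9 ± 2.09 CPM in the same order of groups, and Il9r 94.8 ± 61.9, 106 ± 43.8, 57.1 ± 19.8, 66.6 ± 19.5 and 70.9 ± 33.5 CPM (SD). None of the 8 was called in R, RO or PS against NT, and none of Il2ra, Il7r, Il9r and Il15ra was called over the 27 libraries in a comparison with NT.

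Of 27 other genes of JAK-STAT signalling and its inhibitors, 6 were lower and 1 higher in rPS than in NT, where 21.5% of all genes were called. Their median log2 fold change was −0.21, against −0.01 over all genes tested. Stat2, a transcription factor of interferon signalling, averaged 93.9 ± 10.8 CPM in rPS and 167 ± 41.7 CPM in NT (SD, n = 5 and 7; log2 fold change −0.89 ± 0.21, edgeR adjusted p = 0.00594). Without the T-cell-poor libraries Stat2 had −0.26 ± 0.12 (edgeR adjusted p = 0.143) and was not called. Jak2, a kinase of other cytokine receptors, fell by 0.52 ± 0.14 on the log2 scale, Stam2, an endosomal sorting adaptor, by 0.61 ± 0.16 and Grb2, an adaptor of the Ras pathway, by 0.57 ± 0.17 (edgeR adjusted p = 0.0158, 0.013 and 0.0199). Socs7 rose, with a log2 fold change of 0.39 ± 0.13 (edgeR adjusted p = 0.03). Jak2 was the 1 gene of this list called in PS against NT (log2 fold change −0.64 ± 0.16, edgeR adjusted p = 0.0364), where 4.97% of all genes were called. In R against NT 1 of the 27 was lower (0.665% of all genes called), and in RO against NT none was called (0.0117%). In the fit of the 20 libraries 3 of these 27 genes were lower and none higher in rPS than in NT, where 14.7% of all genes were called, and the median of the 27 was −0.04. Jak2 and Stam2 were among the 3, while Grb2 had −0.21 ± 0.19 (edgeR adjusted p = 0.46) and Socs7 0.56 ± 0.19 (edgeR adjusted p = 0.0563). Socs3, which inhibits receptors that signal through STAT3, averaged 136 ± 60.5, 89.1 ± 17.1, 88.9 ± 17.2, 96.8 ± 17 and 111 ± 43.4 CPM in rPS, R, RO, PS and NT (SD) and was called in no comparison with NT.

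Of 18 genes known as STAT5 targets in lymphocytes, 4 were higher and 3 lower in rPS than in NT, where 10.6% of all genes were higher and 10.9% lower. Of the 4 higher ones, Pim2 and Myc were not called without the T-cell-poor libraries. The median log2 fold change of the 18 was 0.15, against −0.01 over all genes tested. The higher ones were Bcl2, a survival factor (834 ± 271 CPM in rPS and 260 ± 105 CPM in NT; log2 fold change 1.65 ± 0.27, edgeR adjusted p = 0.000474), the cyclin Ccnd3 (643 ± 207 CPM in rPS and 375 ± 88.7 CPM in NT; 0.73 ± 0.19, edgeR adjusted p = 0.0118), the kinase Pim2 (93.3 ± 25.9 CPM in rPS and 45.1 ± 23.1 CPM in NT; 1.01 ± 0.31, edgeR adjusted p = 0.0229) and the growth regulator Myc (134 ± 54.9 CPM in rPS and 62.2 ± 28.2 CPM in NT; 1.05 ± 0.33, edgeR adjusted p = 0.0273). Among the lower ones were the cytotoxic genes Gzmb, at 1.99 ± 0.398 CPM in rPS and 11.5 ± 4.92 CPM in NT (log2 fold change −2.55 ± 0.42, edgeR adjusted p = 0.00061), and Prf1, at 31.6 ± 7.79 CPM in rPS and 48.0 ± 13.8 CPM in NT (log2 fold change −0.64 ± 0.2, edgeR adjusted p = 0.0266; SD over n = 5 and 7 for all 6). Prf1 is also in the list of NK cell markers, of which 7 of 10 were lower in rPS than in NT, and their summed level was 140 to 224 CPM in rPS and 141 to 386 CPM in NT. The part of NK cells in the fall of Gzmb and Prf1 was not tested.

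Bcl2 had the smallest adjusted p of the STAT5 targets in rPS against NT, and 1 target rose and 1 fell in R against NT (0.665% of all genes called), none was called in RO (0.0117%) and 2 fell in PS (4.97%). In R Bcl2 averaged 558 ± 193 CPM (log2 fold change against NT 1.08 ± 0.26, edgeR adjusted p = 0.0437), in RO 395 ± 115 CPM and in PS 380 ± 35.0 CPM (SD), and neither RO nor PS was called against NT. Over the 27 libraries Bcl2 was not called in rPS against PS (log2 fold change 1.2 ± 0.32, edgeR adjusted p = 0.242). In the fit of the 20 libraries it was higher in rPS than in NT (1.12 ± 0.22, edgeR adjusted p = 0.00336), in rPS than in PS (1.18 ± 0.17, edgeR adjusted p = 0.00302) and in rPS than in RO (0.93 ± 0.17, edgeR adjusted p = 0.0412). In R against NT it was not called there (0.73 ± 0.22, edgeR adjusted p = 0.0651). In that fit 2 of the 18 targets, Bcl2 and Ccnd3, were higher and 3 lower in rPS than in NT, and the median log2 fold change of the 18 was 0.03, against 0.05 over all genes tested. Pim2 had a log2 fold change of 0.23 ± 0.2 (edgeR adjusted p = 0.459) and Myc of 0.32 ± 0.28 (edgeR adjusted p = 0.456) in rPS against NT there, so neither was called. Against PS, Pim2 was higher in rPS in the same fit (0.8 ± 0.16, edgeR adjusted p = 0.0295). Gzmb was lower in R (log2 fold change −1.65 ± 0.37, edgeR adjusted p = 0.0359) and in PS (−1.47 ± 0.42, edgeR adjusted p = 0.0483) than in NT over the 27 libraries. Id2, a regulator of effector T cells and NK cells, was lower in PS than in NT (−1.19 ± 0.27, edgeR adjusted p = 0.034).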

How the data were processed

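RNA-seq libraries of CD3+ spleen T cells, 28 in 5 groups, were deposited as 1 table each. The values are expected counts (estimated counts per gene) that the authors deposited unscaled; 21.3% to 25.0% of those above 0 in a library are fractional. Per the submitters' processing notes, Trimmomatic 0.39, STAR 2.7.5a, Cufflinks 2.1.1 and Cuffdiff were used with build GRCm39. For the counting tool, the annotation release and strand use nothing is stated ("not given in the sources used here").

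Counts were rounded to whole numbers. Symbols, chromosomes and exon lengths came from GENCODE M21 (build GRCm38), which matched 94.0% of IDs. Groups came from the labels, which pair no mice. Each library was taken as 1 mouse, which the labels do not state in words; p-values measure the spread between these libraries. edgeR 4.0.16 (R 4.3.3; quasi-likelihood, robust, two-sided, TMM, filterByExpr, all 5 groups, RO replicate 7 left out) tested 17132 genes, with Benjamini-Hochberg adjusted p under 0.05 as the call. Log2 CPM for markers and correlations used a prior count of 2. Ratio tests added 0.5 to each count and used scipy 1.17.1. Alternatives were DESeq2 1.42.0, edgeR with DESeq2 size factors, no filter on low counts, all 28 libraries, no T-cell-poor libraries, a replicate block, 3 marker covariates, a GC slope covariate, only the groups compared, a pseudocount of 1 in the ratios, and leaving out each library in turn. The fitting steps were also tested on simulated data.

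The 10 genes, the lists and the rules for libraries were chosen with earlier results of these data known. A log2 fold change is given for a member where its unadjusted p was under 0.05, for other list genes where called (up to 6 per list by p), and for Il2ra, Il7r, Il9r, Il15ra and Socs3 as levels. The folds given for uncalled members under other fits, for Cd3e and for Il7r, and the values of single libraries such as rPS replicate 5, were picked after they were seen. The 3 nearest genes by r had to average at least 2 CPM. One gene of the JAK-STAT list is counted with its list but is not reported here by itself.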

Additional observations from a re-analysis of the deposited data

Results flagged for a closer look

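In 50 sets of 4 to 7 libraries (10 genes in 5 groups), 10 had a library whose gap to its nearest neighbour was large for the range of the group by Dixon's test. Chance flags about 1 in 20 such sets. The 2 T-cell-poor libraries outside NT gave 6 of them. In R replicate 3, Il2rg stood at 77.9 CPM (next lowest 221 CPM), Il21r at 36.1 CPM (next 187 CPM) and Cish at 3.98 CPM (next 18.1 CPM). In RO replicate 3, Il2rg stood at 137 CPM (next lowest 239 CPM), Il4ra at 215 CPM (next 431 CPM) and Il21r at 64.6 CPM (next 211 CPM). Il2rb stood at 526 CPM in rPS replicate 5, the rPS library with the highest T cell marker level, and next highest at 298 CPM. Stat5a stood at 66.9 CPM in R replicate 4 (next lowest 75.1 CPM) and at 103 CPM in PS replicate 4 (next highest 88.6 CPM). In PS replicate 4 Stat5b was also highest, at 209 CPM, with 184 CPM next.

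RO replicate 7, which entered no test, holds counts for chromosomes 1 to 11. Scaled like CPM but to the counts of those chromosomes alone, Il4ra stood at 649 there, against 383 to 596 in NT and 332 to 728 in the other RO libraries. Jak3 stood at 364 on the same scale, against 194 to 329 in NT and 161 to 445 in the other RO libraries.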

How the results depend on the processing

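The calls of Il4ra and Socs1 in rPS against NT held with DESeq2, its size factors, no low-count filter and the 3 marker covariates, 2 of 10 each. The count was 1 with all 28 libraries, 1 with a replicate block, 1 with only the groups compared, 1 (Il2rg, lower) without the T-cell-poor libraries and 0 with the GC slope. Socs1 had adjusted p = 0.0644 with all 28 libraries and Il4ra adjusted p = 0.0503 with only the groups compared. Leaving out single libraries gave 1 to 2 members, 1 only without rPS replicate 4. Without the T-cell-poor libraries RO and PS against NT had 1 member each (Il2rg), and with only the groups compared PS against NT had 1 (Jak3). The labels pair no mice. Over 38 pairs of libraries with the same number the median r of deviations was 0.04 (−0.36 to 0.77; 14 over 0.1), and 5 of 27 libraries were closest to one of their own number. Under the replicate block Socs1 had a log2 fold change of 1.8 (adjusted p = 0.0556) in rPS against NT.

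Genes called in rPS against NT were 3688, and 2020 with all 28 libraries, 1811 with the replicate block, 2057 with the 3 covariates, 2337 with the GC slope and 1110 with only the groups compared. In R against NT they were 114, and 71 with no filter, 457 with DESeq2, 50 with all 28, 623 without the T-cell-poor libraries, 37 with the block, 304 with the covariates, 208 with the GC slope and 10 with only the groups compared. In RO against NT they were 2, and 181 with DESeq2, 618 without the T-cell-poor libraries and 6 with the covariates. In PS against NT they were 851, and 45 with no filter, 2941 with DESeq2, 5 with all 28, 1327 without the T-cell-poor libraries, 3 with the block, 12 with the covariates, 25 with the GC slope and 2011 with only the groups compared. In rPS against PS they were 14, and in the same order of all 8 settings 9, 46, 4, 90, 1, 82, 27 and 6. In rPS against R they were 2, and 75 with DESeq2, 0 with all 28, 40 without the T-cell-poor libraries, 0 with the block, 30 with the covariates, 22 with the GC slope and 0 with only the groups compared. In rPS against RO they were 3, and 63 with DESeq2, 14 without the T-cell-poor libraries, 21 with the covariates, 5 with the GC slope and 0 with only the groups compared. In R against RO they were 0, and 13 with DESeq2 and 7 with the covariates. For the difference of differences they were 3, and 15 with DESeq2 and 63 without the T-cell-poor libraries. Leaving out single libraries gave 2122 to 4685 genes for rPS against NT, 25 to 552 for R, 2 to 243 for RO and 2 to 2900 for PS. It gave 1 to 23 in rPS against PS, 0 to 56 in rPS against R, 1 to 22 in rPS against RO, 0 to 2 in R against RO and 2 to 10 for the difference of differences. The cause of these shifts was not tested.

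Without the T-cell-poor libraries 5 uncalled ratio differences changed sign, to −0.08 for Il2rb/Il2rg in RO, 0.05 and 0.17 for Jak3/Jak1 in rPS and R, and 0.08 and 0.15 for Stat5a/Stat5b in R and RO, each against NT. Leaving out single libraries gave −0.11 to 0.08 for Stat5a/Stat5b in rPS, −0.13 to 0.04 in RO, −0.07 to 0.12 for Jak3/Jak1 in RO and −0.17 to 0.02 for Il2rb/Il2rg in PS against NT. Depth limits Socs1 and Cish most, whose lowest counts in a library were 23 and 27.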
